A study of Homo sapiens with 32 samples.

Results

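CREB, CRTC, SIK and EPAC proteins carry the cAMP signal beyond the kinase PKA itself, and the 10 genes that encode them and the SIK-activating kinase LKB1 were examined in a pooled CRISPR-knockout screen of PKA activity. The genes were chosen by name, with earlier results of these data known. They were the transcription factor CREB1, its coactivators CRTC1, CRTC2 and CRTC3, and the salt-inducible kinases SIK1, SIK2 and SIK3. The others were the upstream kinase of the SIKs, STK11 (LKB1), and the cAMP-activated exchange factors RAPGEF3 (EPAC1) and RAPGEF4 (EPAC2). All 10 were found among the 18638 genes of the library, each with 4 single guide RNAs (sgRNAs), which makes 40 of 74987 sgRNAs. The cells were RKO, an established human colon cancer line, with stable transgenes for Cas9 and for Kinprola_PKA, a split-HaloTag recorder that is labeled covalently by the fluorescent substrate CPY-CA while PKA is active. Cells of every sorted group carried both transgenes and 1 sgRNA in the large majority of cases, received the same labeling, and were separated by their CPY-CA/EGFP ratio. They were divided into a high, a low and a medium population (called basal in the sample labels), and a day 0 control (T0) had its own libraries. There were 2 screens, labeled replicates 2 and 3, which gave 8 libraries of 23369720 to 31777138 reads. A positive log2 fold change in high versus low means that the sgRNAs against a gene were more abundant in the strongly labeled cells.

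When cAMP rises, PKA phosphorylates CREB at a site that recruits the acetyltransferases CBP and p300, and transcription of genes with cAMP response elements follows. CRTC coactivators are held in the cytoplasm by 14-3-3 proteins after phosphorylation by SIKs, and PKA phosphorylates and restrains the SIKs, so that CRTCs enter the nucleus. LKB1 phosphorylates the activation loop of SIKs, of AMPK and of other related kinases. EPACs bind cAMP directly and load the small GTPase RAP1 with GTP, independently of PKA.

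STK11 and CRTC3 were the members called in the comparison of the high and low populations, and they went in opposite directions. STK11 sgRNAs were depleted in high relative to low to a fold of 0.605, and CRTC3 sgRNAs were enriched to a fold of 1.35. These were 1 member called higher and 1 called lower of 10 (limma across all gene entries, Benjamini-Hochberg adjusted p under 0.05), against 5.25% of all genes called higher and 2.73% called lower. At an unadjusted p under 0.05 the count was 3 of 10, the third being RAPGEF4, against 17.6% of all genes. The median log2 fold change of the 10 members was −0.07, beside −0.01 over all genes. For scale, PRKACA, the main catalytic subunit of PKA, had a log2 fold change of −1.60, GNAS, the stimulatory G protein subunit, −1.31, and PRKAR1A, an inhibitory regulatory subunit of PKA, 1.16 in the same comparison.

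**Figure D1:**
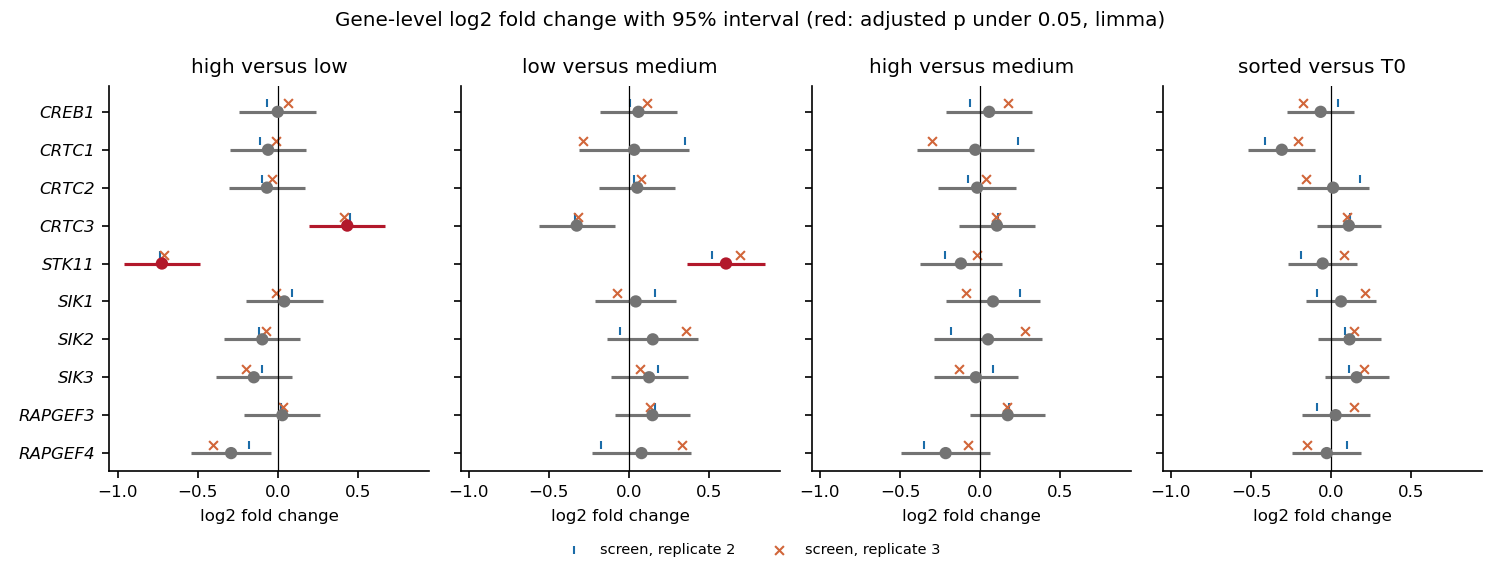
Gene-level log2 fold change (horizontal axis) of the 10 members in 4 comparisons, 1 per panel, with points for the mean of 2 screens, lines for the 95% interval, small marks for each screen, and red for an adjusted p under 0.05. STK11 (−0.72) and CRTC3 (0.43) stand away from 0 in high versus low, and STK11 (0.60) also in low versus medium.

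STK11 (ENSG00000118046, GRCh38 chromosome 19, 1177558 to 1228431, plus strand) encodes LKB1, the kinase that switches on SIKs and AMPK. Its 4 sgRNAs summed to 1534.1 and 1804.9 scaled reads (reads at the mean library total) in the high libraries of replicates 2 and 3, against 2650.5 and 2983.3 in the low libraries. In medium the sums were 1812.6 and 1876.2, and at T0 they were 2080.4 and 1879.7. Both low libraries were above all 6 others. Both high libraries were below all others, though high replicate 3 (1804.9) was close to medium replicate 2 (1812.6). The share of all genes with such separations was not counted. The log2 fold change of high versus low was −0.74 in replicate 2 and −0.71 in replicate 3, with a mean of −0.72 (SE 0.11, 95% interval −0.96 to −0.49, n = 2 screens, limma adjusted p = 0.000818). In low versus medium it was 0.60 (0.52 and 0.69 in the screens, SE 0.11, limma adjusted p = 0.0205). STK11 was the 1 member called higher there, against 1.18% of all genes, and no member was called lower, against 1.54%. In high versus medium its value was −0.12 (95% interval −0.38 to 0.14, limma adjusted p = 0.783).

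The larger displacement of STK11 on the low side of medium was itself tested by taking 2 times medium from the sum of low and high on the log2 scale. That value was 0.48 (0.30 and 0.67 in the screens), with a limma adjusted p of 0.678, so a difference between the sides did not pass. No member passed in this test, which called 0.0376% of all genes, and STK11 was the only member at an unadjusted p under 0.05, against 6.86%. Without the low library of replicate 2 the adjusted p of STK11 in high versus low was 0.0509, and without that of replicate 3 it was 0.0713, at log2 fold changes of −0.76 and −0.69. The call of low versus medium was lost without the low library of replicate 2 (adjusted p = 0.187), the low library of replicate 3 (0.267) or the medium library of replicate 3 (0.13).

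All 4 STK11 sgRNAs were less abundant in high than in low in both screens, which 3.18% of all genes showed. STK11 sgRNA 2 had 683.4 and 886.4 scaled reads in high against 1195 and 1395.2 in low, and its log2 fold change was −0.73 (edgeR adjusted p = 3.93e-08). STK11 sgRNA 3 had 445.4 and 488.3 in high and 796.7 and 894.3 in low (−0.86, adjusted p = 1.5e-07). STK11 sgRNA 4 had 215.3 and 253.6 in high and 411.1 and 438.4 in low (−0.86, adjusted p = 0.00105). In each of these 3 the high libraries did not overlap the low ones. STK11 sgRNA 1 was the least abundant, with 190 and 176.6 in high and 247.8 and 255.4 in low, and it did not pass (−0.46, adjusted p = 0.419). The libraries of that sgRNA did not overlap either. The share of all sgRNAs without such overlap was not counted. Of the 40 sgRNAs of the members, 3 were called, STK11 sgRNAs 2, 3 and 4, all lower. Of all sgRNAs tested, 1.55% were called lower and 2.95% higher. The call of sgRNA 4 was lost without high replicate 2 or low replicate 2.

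STK11 sgRNAs 2, 3 and 4 were also the 3 called higher in low versus medium (log2 fold changes of 0.68, 0.49 and 0.76, with edgeR adjusted p of 2.24e-06, 0.0354 and 0.0177), against 0.645% of all sgRNAs. Of these, 1 call, that of sgRNA 2, held with DESeq2, in edgeR without the screen as a block, and without any 1 of the low and medium libraries, where sgRNAs 3 and 4 did not pass. STK11 sgRNA 1 was at 0.50 (adjusted p = 0.544). All 4 were higher in low than in medium in both screens, which 1.88% of all genes showed. In high versus medium the sgRNAs differed more among themselves. STK11 sgRNA 3 was at −0.36 (edgeR adjusted p = 0.299), while the other 3 lay between −0.10 and 0.04.

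**Figure D2:**
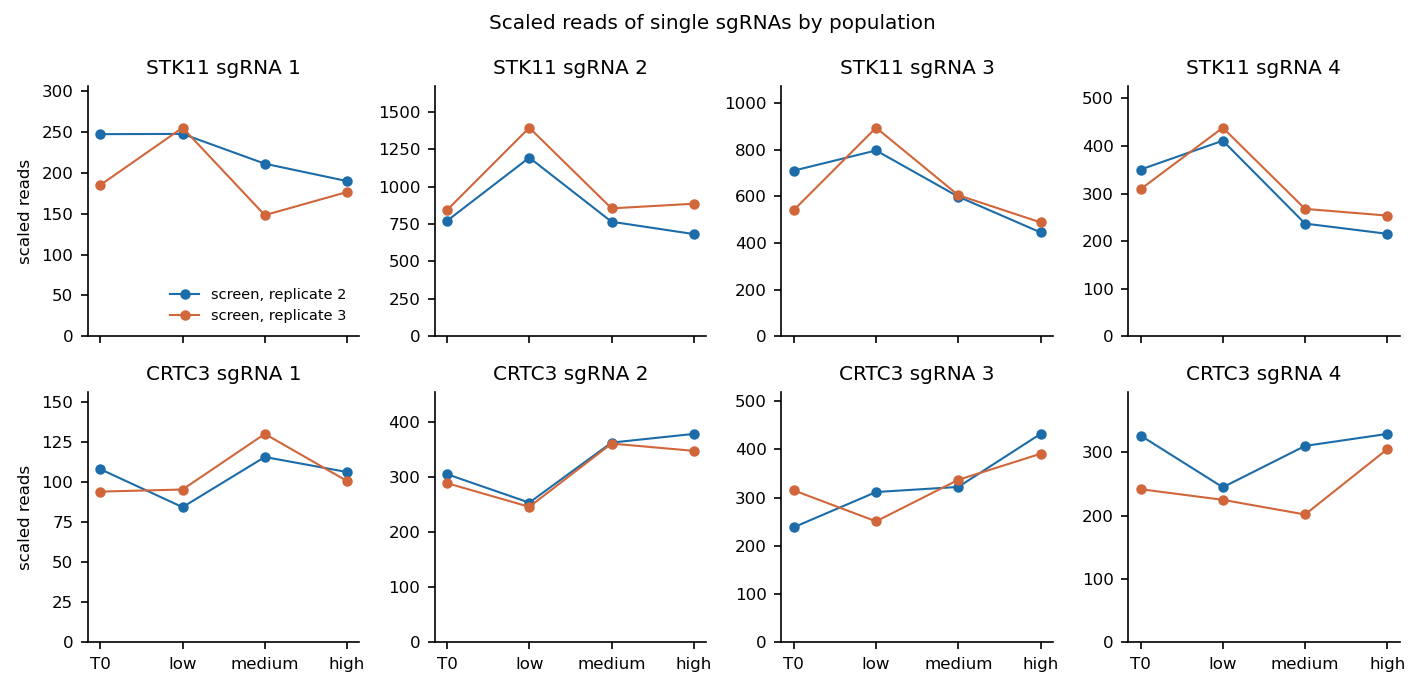
Scaled reads (vertical axis, from 0) of each STK11 sgRNA (top row) and each CRTC3 sgRNA (bottom row) at T0 and in low, medium and high (horizontal axis), with 1 line per screen. The low points of STK11 sgRNAs 1, 2, 3 and 4 exceed their medium and high points in both screens, and CRTC3 sgRNAs have more reads in high than in low in both.

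CRTC3 (ENSG00000140577, chromosome 15, 90529923 to 90645345, plus strand) is 1 of the 3 coactivators that bind CREB once SIK phosphorylation is relieved. Its sgRNAs summed to 1246.4 and 1144.8 scaled reads in high, against 894.9 and 817.6 in low. Medium held 1111.2 and 1030.4, between the other populations in each screen, and T0 held 978.7 and 940.4. Both high libraries were above both low ones. The log2 fold change of high versus low was 0.45 and 0.41 in the screens, with a mean of 0.43 (SE 0.11, 95% interval 0.19 to 0.67, limma adjusted p = 0.0289). This is near the smallest value called in that comparison, 0.39. Leaving out any of the 4 libraries ended the call, with adjusted p of 0.182 without high replicate 2, 0.226 without low replicate 2, 0.139 without high replicate 3 and 0.196 without low replicate 3, while the log2 fold change stayed between 0.42 and 0.45.

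Single CRTC3 sgRNAs did not pass in high versus low. Their log2 fold changes were 0.21, 0.54, 0.55 and 0.43 for sgRNAs 1 to 4, with edgeR adjusted p of 0.891, 0.113, 0.0822 and 0.367. All 4 were more abundant in high than in low in both screens, as 4.51% of all genes were. CRTC3 sgRNA 3 had 432.3 and 391.1 scaled reads in high and 311.8 and 251 in low. CRTC3 sgRNA 2 had 379.2 and 348.4 in high and 254.2 and 246.6 in low. CRTC3 sgRNA 1, the least abundant, had 106.3 and 100.7 in high and 84.4 and 95.4 in low, the smallest displacement of the 4. In low versus medium CRTC3 was at −0.33 (95% interval −0.56 to −0.09, limma adjusted p = 0.218), and in high versus medium at 0.10 (−0.13 to 0.34, adjusted p = 0.799). The test of both sides of medium gave −0.22 (adjusted p = 0.89).

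The other coactivators did not pass in high versus low. CRTC1 (ENSG00000105662, chromosome 19, 18683678 to 18782333, plus strand) summed to 713.9 and 711.1 scaled reads in high, against 776.4 and 626.9 in low, and the populations overlapped. Its log2 fold change was −0.06 (95% interval −0.30 to 0.18, limma adjusted p = 0.849). CRTC2 (ENSG00000160741, chromosome 1, 153947669 to 153958615, minus strand) summed to 1505.3 and 1474.3 in high, against 1672.3 and 1584.8 in low. Both high libraries were below both low ones, yet the log2 fold change was −0.07 (−0.31 to 0.17, adjusted p = 0.828), since CRTC2 sgRNA 4, at 629.3 and 626.9 in high against 768.9 and 797.9 in low, carried most of that gap. The intervals of CRTC1 and CRTC2 lay below the point value of CRTC3. Differences between the 3 genes were not tested.

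CREB1 (ENSG00000118260, chromosome 2, 207529737 to 207605988, plus strand), the cAMP-responsive transcription factor itself, summed to 1299.6 and 1301.2 scaled reads in high, against 1268.7 and 1161.7 in low. Both high libraries were above both low ones, but its log2 fold change over sgRNAs was −0.00 (−0.07 and 0.06 in the screens, 95% interval −0.24 to 0.24, limma adjusted p = 0.996). CREB1 sgRNAs 1, 3 and 4 were higher in high in both screens, and sgRNA 2, the least abundant, was lower in both, at 80.2 and 58.1 in high against 127.1 and 74.5 in low. Of all genes, 22.4% had both high sums above both low sums and 25.5% had them below. Among the members, CREB1 and CRTC3 were in the first class, and CRTC2, SIK2, SIK3, RAPGEF4 and STK11 in the second.

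The 3 salt-inducible kinases, which phosphorylate CRTCs and class IIa histone deacetylases, had values between −0.15 and 0.04 in high versus low, and none passed. SIK1 (ENSG00000142178, chromosome 21, 43414483 to 43427131, minus strand), whose own transcription is induced by cAMP, summed to 3240.7 and 3084.8 scaled reads in high, against 3222.9 and 2943.8 in low. SIK2 (ENSG00000170145, chromosome 11, 111602449 to 111730855, plus strand) summed to 1295.2 and 1269.2 in high, against 1341.3 and 1379.8 in low. SIK3 (ENSG00000160584, chromosome 11, 116843402 to 117098437, minus strand) summed to 1643 and 1582.1 in high, against 1821.8 and 1779.9 in low. SIK1 overlapped between the populations, whereas the SIK2 and SIK3 sums were lower in high in both screens. The log2 fold changes were 0.04 for SIK1 (95% interval −0.20 to 0.28), −0.10 for SIK2 (−0.34 to 0.14) and −0.15 for SIK3 (−0.39 to 0.09), with limma adjusted p of 0.91, 0.736 and 0.559. SIK2 and SIK3, like RAPGEF4 and STK11, had 4 sgRNAs with a mean below 0. Of these, 1 of SIK2 and 2 of SIK3 were below 0 in both screens. The share of all genes with 4 such means was not counted. The intervals of all 3 kinases lay above the point value of STK11, and the differences were not tested. The SIKs were knocked out 1 at a time, so that the effect of losing several together was not measured.

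Each of the SIKs had sgRNAs whose high versus low value changed sign between the screens. These were SIK1 sgRNA 1, SIK2 sgRNAs 1, 2 and 4, and SIK3 sgRNAs 2 and 4. SIK2 sgRNA 2, with 117.7 and 165.9 scaled reads in high and 193.3 and 143.6 in low, was lower in high in replicate 2 and higher in replicate 3. SIK1 sgRNA 2 was the most abundant sgRNA of the members, with 1911.5 and 1774.1 in high and 1936.1 and 1781 in low. That sgRNA was nearly level between the populations in both screens.

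The EPACs were not called. RAPGEF4 (ENSG00000091428, chromosome 2, 172735274 to 173052893, plus strand) summed to 1061.6 and 1028.7 scaled reads in high, against 1207.8 and 1290 in low, without overlap. Its log2 fold change was −0.29 (−0.18 and −0.41 in the screens, SE 0.11, 95% interval −0.54 to −0.05, limma adjusted p = 0.184). Without the low library of replicate 2 the value was −0.47, and without that of replicate 3 it was −0.11. RAPGEF4 had 3 sgRNAs that were lower in high in both screens, and none of its sgRNAs passed on its own, the lowest edgeR adjusted p being 0.466. Its position relative to medium was not shared by the screens. The medium library of replicate 2 had 1400 reads, above both other populations of that screen, and that of replicate 3 had 1049.6, close to its high library. RAPGEF3 (ENSG00000079337, chromosome 12, 47734363 to 47771040, minus strand) summed to 1544.5 and 1482.5 in high, against 1515.3 and 1543.1 in low. These overlapped, and the log2 fold change was 0.03 (−0.21 to 0.26, adjusted p = 0.939). In medium RAPGEF3 had 1353.5 and 1339.7, below both high and both low libraries. The share of all genes with that pattern was not counted. Neither high versus medium (0.17, limma adjusted p = 0.643) nor low versus medium (0.15, limma adjusted p = 0.715) passed.

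**Figure D3:**
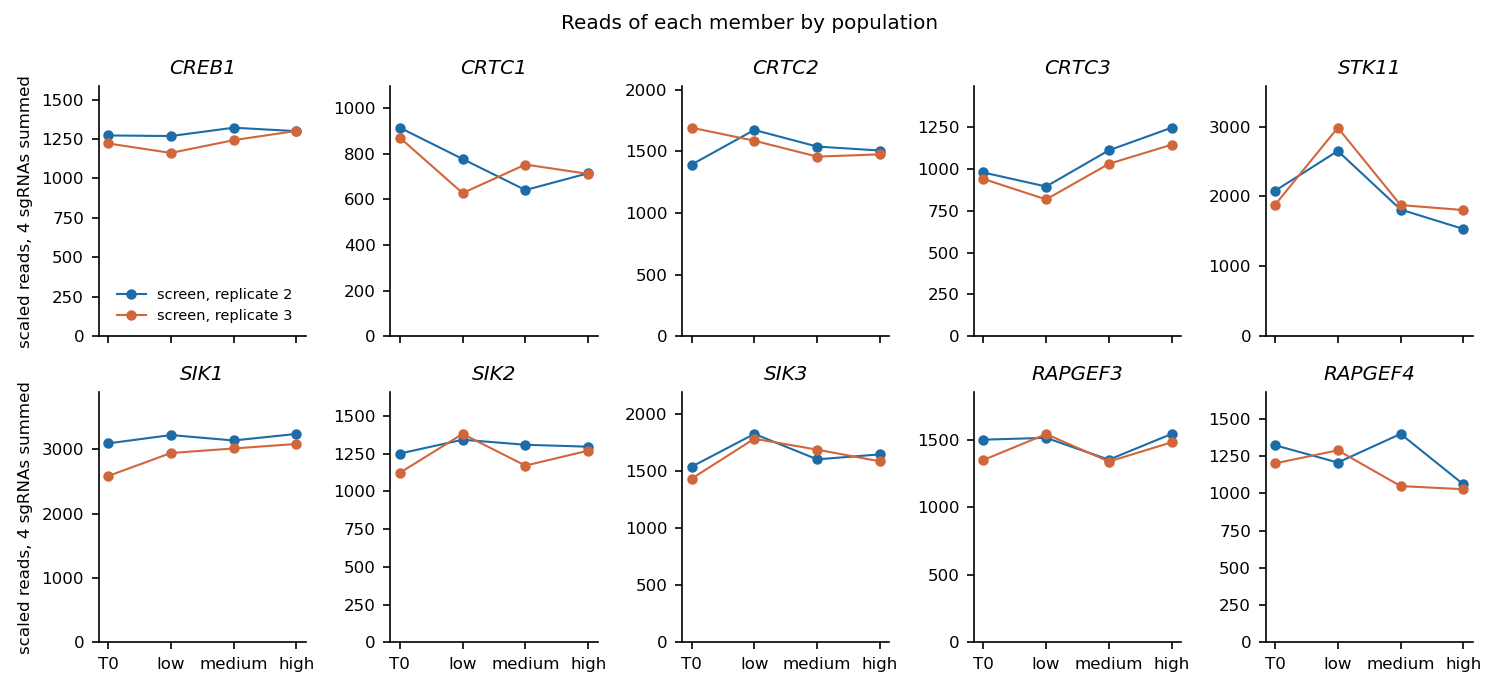
Scaled reads of the 4 sgRNAs of each member summed (vertical axis, from 0) at T0 and in low, medium and high (horizontal axis), with 1 line per screen. STK11 peaks in low in both screens, CRTC3 is ordered low, medium, high in both, and CREB1 and SIK1 stay nearly flat over the sorted populations.

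Beside these, no member passed in high versus medium, where values ran from −0.22 for RAPGEF4 to 0.17 for RAPGEF3 and 0 of 10 had an unadjusted limma p under 0.05, against 1.79% of all genes called and 10.0% at that unadjusted p. The edgeR test called 0 of the 40 sgRNAs there, against 1.25% of all sgRNAs, with 3 at an unadjusted p under 0.05, against 8.91%. The members at an unadjusted p under 0.05 in low versus medium were 2, STK11 and CRTC3, against 11.1% of all genes. The uncalled members of high versus low had 95% intervals with a lowest bound of −0.54 (RAPGEF4) and a highest of 0.28 (SIK1). Displacements in sgRNA abundance beyond these bounds lay outside the intervals at this precision. The intervals do not bound the effect of losing the proteins, since that loss was not measured. Among those 8 genes, 1 of 32 sgRNAs had an unadjusted p under 0.05 in high versus low, against 12.9% of all sgRNAs, and the lowest adjusted p was 0.229.

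**Figure D4:**
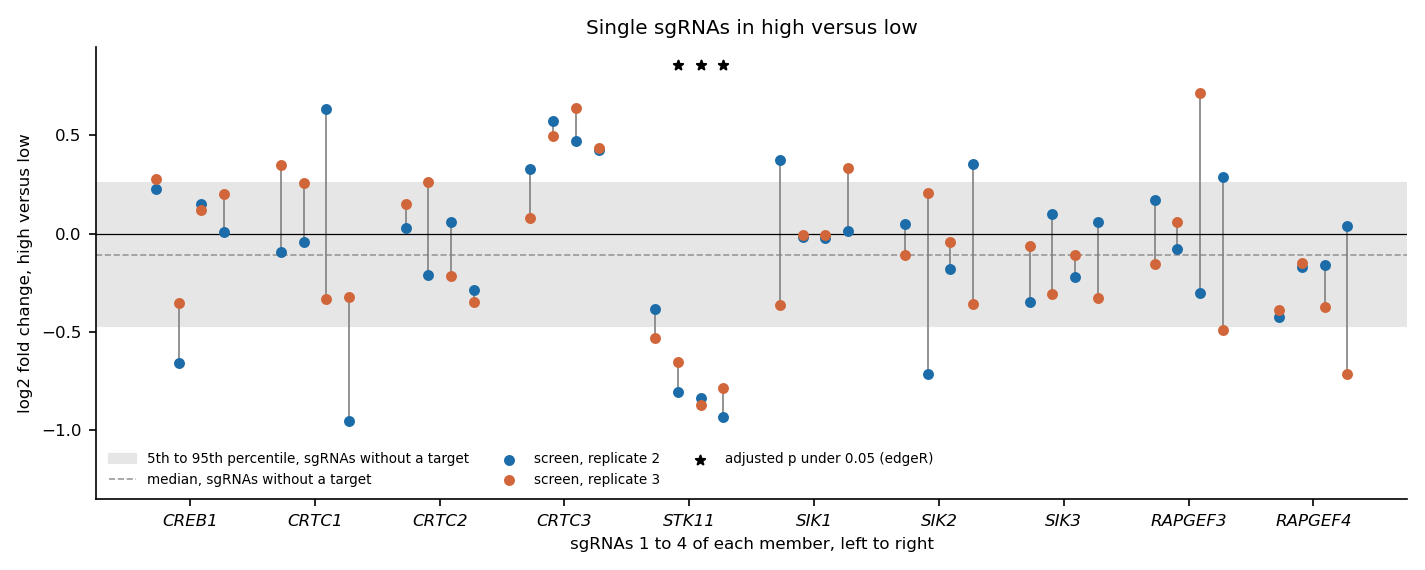
Log2 fold change of high versus low (vertical axis) for the 4 sgRNAs of each member (horizontal axis), with 1 point per screen joined by a line, the 5th to 95th percentile of 278 sgRNAs without a target in grey and their median dashed, and stars for an edgeR adjusted p under 0.05. STK11 and CRTC3 have all 8 points on the same side of 0, and in the other members the screens or the sgRNAs differ in sign.

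The sgRNAs without a target had a median log2 fold change of −0.11 in high versus low, with a 5th to 95th percentile of −0.47 to 0.26, and 0 of 275 tested were called higher and 3 lower. All 4 STK11 sgRNAs except sgRNA 1 had means below that range, and all CRTC3 sgRNAs except sgRNA 1 had means above it. With each library centered on the median of the nontargeting sgRNAs, which are only a part of these controls, CRTC3 was at 0.48 and STK11 at −0.67. Both calls held.

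Against T0, with library totals set equal, the members ran from −0.31 to 0.16 and none passed, against 9.02% of all genes called. CRTC1 had the lowest value, −0.31 (−0.41 and −0.21 in the screens, SE 0.09, 95% interval −0.52 to −0.10, limma adjusted p = 0.0751), and was the only member at an unadjusted p under 0.05, against 20.9% of all genes. Its sums were 713.9 and 711.1 in high, 640.3 and 752 in medium and 776.4 and 626.9 in low, against 913.4 and 869.8 at T0. All 6 sorted libraries were below both T0 libraries, and the share of all genes with such a separation was not counted. Without the medium library of replicate 2 the value was −0.17 (adjusted p = 0.369), and without the T0 library of replicate 2 it was −0.25 (adjusted p = 0.569). CRTC1 sgRNA 1, with 331 to 425 reads in the sorted libraries and 536 and 512.7 at T0, was the 1 sgRNA of the 40 that edgeR called (log2 fold change −0.45, adjusted p = 0.0284), against 6.29% of all sgRNAs called lower. That call was lost without high replicate 2, medium replicate 2, low replicate 3 or either T0 library. The other members lay between −0.07 (CREB1) and 0.16 (SIK3), with STK11 at −0.05 and CRTC3 at 0.11. The sgRNAs without a target were at a median of 0.22 in this comparison, above every member. Of 275 such sgRNAs tested with edgeR, 24 were called higher and 0 lower. With each library centered on the median of only the nontargeting ones among these controls, CRTC1 was at −0.46 with a limma adjusted p of 0.0072. The values of CRTC2, CRTC3, SIK1, SIK2 and RAPGEF3 then turned negative, and none of these passed.

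The genes around the members were counted in lists, which were also chosen with earlier results of these data known. CREM, ATF1 and STRADA were named after their values were seen, as was the low versus medium value of CAB39. Of 12 other CREB family factors and coactivators, CREBBP, the CBP acetyltransferase that binds phosphorylated CREB, was the 1 called in high versus low (log2 fold change 1.55, limma adjusted p = 7.43e-06), higher in high. CREBBP was also higher in high versus medium (1.15, adjusted p = 0.0123) and lower in sorted cells than at T0 (−1.26, adjusted p = 1.21e-05). The median of the list in high versus low was −0.07. CREM, a related cAMP-responsive factor, was at −0.06 (adjusted p = 0.855), and ATF1, the closest relative of CREB1, at 0.13 (adjusted p = 0.636).

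Of 15 LKB1 partners and other kinases activated by LKB1, CAB39, the MO25 scaffold of the LKB1 complex, was the 1 called in high versus low, at 0.43 (0.39 and 0.47 in the screens, adjusted p = 0.03), opposite in sign to STK11. That call was lost with the median over sgRNAs and without any 1 of the 4 high and low libraries. STRADA, the pseudokinase of that complex, was at −0.01 (adjusted p = 0.976). The median of the list was 0.01. CAB39 was at −0.48 in low versus medium with an adjusted p of 0.0534.

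Of 11 class IIa histone deacetylases and 14-3-3 proteins, which SIKs phosphorylate or which hold phosphorylated CRTCs, YWHAZ, the 14-3-3 zeta protein, was the 1 called in high versus low (0.74, adjusted p = 0.00136), and that call was lost without either library of replicate 2 (high or low). Against T0 YWHAZ was lower (−0.85, adjusted p = 7.07e-05) and YWHAQ, the 14-3-3 theta protein, higher (0.45, adjusted p = 0.00711), and without either T0 library the list had 1 gene called. The list median in high versus low was −0.01. Of 14 measured genes of RAP signaling, SIPA1, which turns off RAP GTPases, was the 1 called in high versus low (0.77, adjusted p = 0.000676). That call was lost with the median over sgRNAs, a minimum mean of 50 reads, limma on the libraries with or without the block, and without any 1 of the 4 high and low libraries. The screens placed SIPA1 differently relative to medium, with 0.46 and −0.91 in low versus medium and 1.13 and −0.03 in high versus medium. RAP1B, a RAP GTPase, was lower against T0 (−0.47, adjusted p = 0.0172), which did not hold with the median over sgRNAs or without the medium or the T0 library of replicate 3. The list median in high versus low was 0.01. None of 13 channels and Popeye domain proteins that bind cyclic nucleotides was called in any comparison, and 2 of them had an unadjusted limma p under 0.05 in high versus low, against 17.6% of all genes. No gene of the 5 lists passed in low versus medium by limma, where 3, 2, 2, 2 and 0 genes, in the order given, had an unadjusted p under 0.05, against 11.1% of all genes.

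The genes whose pattern was nearest to that of STK11 were found by Euclidean distance over 6 values, the mean log2 level in high, medium and low minus T0 in the 2 screens. They were RBL1, a retinoblastoma-related protein, at a distance of 0.28, SRP68, a subunit of the signal recognition particle, at 0.281, and CDK13, a kinase of RNA polymerase II, at 0.295, beside a median distance of 0.978 over all genes. Their log2 fold changes in high versus low were −0.49, −0.70 and −0.54. The likeness of these values to that of STK11 follows from the choice, since the distance used the same libraries. The nearest genes also lie below the median distance by construction. STK11 itself was at −0.48 and −0.11 relative to T0 in high, −0.26 and −0.09 in medium, and 0.26 and 0.60 in low. The sign of its level relative to T0 was therefore shared by the screens in every population, but its size was not.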

How the data were processed

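The authors amplified and sequenced the sgRNA cassettes from genomic DNA, counted them with MAGeCK and deposited raw counts per sgRNA and lane. For the sgRNA counts, no aligner or genome build was named in the sources used. Lanes differed by about sampling noise and were summed to 8 libraries with medians of 260 to 356 reads per sgRNA. Reads carry no molecular identifiers and are not independent molecules. Of the table's columns, 4 match no sample of the series and were not used. The lane 4 libraries of medium share a label with lane 4 of high and were assigned by title. Library totals were set to their mean, a pseudocount of 1 read went in before log2, and each gene took the mean of its sgRNAs' within-screen differences. The mean of 2 screens was tested against 0 with limma 3.58.1 (R 4.3.3), with Benjamini-Hochberg adjustment over 18659 entries, at a threshold of 0.05. For T0 the sorted log2 values were weighted by 0.25, 0.5 and 0.25 (high, medium, low). Single sgRNAs were tested on the deposited counts with edgeR 4.0.16 (quasi-likelihood, screen as a block), and DESeq2 1.42.0 was an alternative. Both tests were tried on simulated data. The screens were independent, so the screen is a block by construction, and deviations of same-numbered libraries correlated at 0.129 (high and medium), 0.0903 (high and low) and 0.128 (medium and low). Nothing more is known of how the 2 screens differ. The limma p-values rest mostly on the spread between screens pooled over all entries (10.2 prior degrees of freedom in high versus low). They do not measure the spread of 1 gene alone. The edgeR p-values likewise use dispersions moderated across sgRNAs.

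Gene names and coordinates are from GENCODE release 44, which named 18585 of 18638 identifiers. RAPGEF6 of the lists was not matched. The text names all members, every list gene past the threshold (at most 5 per list and comparison), the 3 genes nearest to the member with the lowest adjusted p, and PRKACA, GNAS and PRKAR1A as scale. CREM, ATF1, STRADA and the low versus medium value of CAB39 were added after their values were seen. The members and lists were chosen with earlier results of these data known. The removal of core-essential genes by the study was not applied. Alternatives changed the pseudocount, scaling, control centering, sgRNA summary, minimum reads, block and libraries. Figures were drawn with Python 3.11.15 and matplotlib 3.10.9.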

Additional observations from a re-analysis of the deposited data

How the results depend on the processing

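The calls of STK11 and CRTC3 in high versus low, and of STK11 in low versus medium, held under all 8 alternatives that kept every library. Log2 fold changes of STK11 in high versus low then ran from −0.86 to −0.67 (limma adjusted p of 7.1e-07 to 0.00378), and those of CRTC3 from 0.42 to 0.48 (0.00622 to 0.0427). The replicate block changed neither: limma on the libraries with the block gave adjusted p of 0.00343 for STK11 and 0.0321 for CRTC3, and 1212 genes called in all. Without the block the values were 0.00378 and 0.0427, and low versus medium had 258 genes called. Both limma fits on the libraries ended the call of SIPA1, leaving 0 in its list, and gave 4 genes with the block and 2 without it in the test of both sides of medium. CRTC1 against T0, not called in the report, passed with 5 reads added (−0.30, limma adjusted p = 0.0459) and on a minimum mean of 50 reads per sgRNA (0.0415). It also passed with control centering, which used the nontargeting sgRNAs (−0.46, limma adjusted p = 0.0072). Each of these settings makes 1 member called. Without medium replicate 3 the value of CRTC1 was −0.45. Its value over single left-out libraries ran from −0.45 to −0.17 (adjusted p of 0.0143 to 0.569). The cause was not tested.

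Counts over all genes that moved were, in high versus medium, 763 with control centering and 632 with the median over sgRNAs, against T0 3015 with control centering, and in the test of both sides 82 with 5 reads added, 221 with control centering, 131 with the median and 86 with at least 50 reads. Control centering shifted the median of all genes against T0 to −0.12. DESeq2 called 2188, 543 and 491 sgRNAs in high versus low, low versus medium and high versus medium, and DESeq2 and edgeR without the block each called 1 sgRNA of the members in low versus medium. Lists moved by 1 or 2 genes. With the median over sgRNAs the LKB1 and RAP lists had 0 called in high versus low and the 14-3-3 list 2, the CREB, LKB1 and RAP lists had 1 in low versus medium, and the RAP list had 0 against T0. With at least 50 reads the LKB1 list had 2 and the RAP list 0 in high versus low, and the LKB1 and 14-3-3 lists 1 in low versus medium, as with 5 reads added. Size factors gave the LKB1 list 1 there. Against T0 control centering gave the LKB1 list 1, the RAP list 2 and the cyclic nucleotide list 1.

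Signs turned only for values that were not called on either side. CREB1 in high versus low was 0.00167 with 5 reads added, 0.00475 with TMM, 0.00365 with size factors, 0.0482 with control centering and 0.195 with the median. The median also gave 0.0586 for CRTC2 and −0.046 for RAPGEF3 in high versus low, −0.165 for CREB1 in low versus medium, 0.138 for CRTC2 in high versus medium, and 0.118 for CREB1 and −0.227 for CRTC2 against T0. In high versus medium control centering gave 0.0293 for CRTC1, 0.0411 for CRTC2 and 0.0333 for SIK3. Against T0 CRTC2 was at −3.33e-05 with TMM, −0.00482 with size factors and −0.139 with control centering, which also put CRTC3 at −0.0412, SIK1 at −0.0900, SIK2 at −0.037 and RAPGEF3 at −0.124.

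Leaving out 1 library at a time moved the genes called to 642 to 1487 in high versus low, 31 to 506 in low versus medium, 0 to 91 in the test of both sides and 985 to 1504 against T0. Members called ran from 0 to 2, 0 to 1 and 0 to 1 in high versus low, low versus medium and against T0. The LKB1, 14-3-3 and RAP lists ran from 0 to 1 in high versus low, the RAP list from 0 to 2 in low versus medium and 0 to 1 in high versus medium, the test of both sides and against T0, and the 14-3-3 list from 1 to 2 against T0. Called sgRNAs ran from 1844 to 3401, 420 to 1030, 443 to 943 and, against T0, 3398 to 5240, with 1 to 3 of the members in low versus medium and 0 to 1 against T0. Signs turned in high versus low for CREB1 (−0.0946 to 0.0902), CRTC1 (−0.246 to 0.121), SIK1 (−0.0700 to 0.147) and SIK2 (−0.224 to 0.0272). In low versus medium they turned for CREB1 (−0.0294 to 0.145), CRTC1 (−0.26 to 0.323), SIK1 (−0.103 to 0.185), SIK2 (−0.069 to 0.364) and RAPGEF4 (−0.116 to 0.27). In high versus medium they turned for CREB1 (−0.0367 to 0.148), CRTC1 (−0.323 to 0.261), CRTC2 (−0.0633 to 0.0253), SIK1 (−0.064 to 0.224), SIK2 (−0.167 to 0.265) and SIK3 (−0.109 to 0.0555). Against T0 they turned for CREB1 (−0.163 to 0.0303), CRTC2 (−0.15 to 0.173), SIK1 (−0.0625 to 0.184), RAPGEF3 (−0.0842 to 0.139), RAPGEF4 (−0.13 to 0.073) and STK11 (−0.203 to 0.0959). These fits have 1 library left in a population, which is assumed to vary like the others.

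With 2 screens, the smallest log2 fold change called in high versus low was 0.389 in size. This is not a fixed threshold, since the SE differs between genes. Member sgRNAs had 37 to 2193 reads in a library, so the least abundant ones carry the largest counting error. Loss of the protein was not measured for any sgRNA.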
